A study of Mus musculus with 10 samples.

Results

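The Bcl2 family apoptosis regulators examined here were the 10 genes Bcl2, Bcl2l1, Mcl1, Bax, Bak1, Bcl2l11, Pmaip1, Bbc3, Bid and Bad, chosen by symbol with earlier results of these data known. Each symbol matched a single Ensembl identifier in GENCODE M21, so the members were 10 of 55385 gene identifiers, and 9 of them passed the filter on low counts. RNA-seq of untreated, sub-confluent melanoma cells in culture compared 5 libraries of parental WT31 with 5 libraries of WT31_P5IV, the subline taken from WT31 after 5 passages through the liver of mice. WT31 was derived from mice of genotype Tyr::NrasQ61K/°; INK4a-/-, that is, with mutant Nras under the promoter of the melanocyte gene tyrosinase and without INK4a, and both groups share this genotype as well as the RPMI medium with fetal calf serum. WT31_P5IV is a single subline, so the 5 libraries repeat the culture and not the passaging, and p-values measure the spread between libraries of these lines. The comparison asks which transcripts of the apoptosis machinery differed in the subline after hepatic passaging.

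Proteins of the Bcl2 family decide whether the outer membrane of the mitochondrion is opened, the step that releases cytochrome c and starts the intrinsic pathway of apoptosis. Pro-survival members hold back the effectors Bax and Bak1, which form the pores, and BH3-only members bind pro-survival members or effectors when a cell is stressed or deprived of growth signals. In the melanocyte lineage BCL2 is known as a target of the transcription factor MITF, and MCL1 and BCL2L1 are known survival factors of melanoma cells.

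Libraries held 24255389 to 25750639 estimated counts, and 3 counts, taken as the limit of detection, were 0.114 to 0.129 CPM (counts scaled to library size). By edgeR's quasi-likelihood test with Benjamini-Hochberg adjustment, 9327 of 13620 tested genes (68.5%) had an adjusted p under 0.05. The 8 melanocyte markers were detected in every library, with summed levels of 14417 to 15261 TPM (counts scaled to transcript length and library size) in WT31 and 16103 to 17947 TPM in WT31_P5IV, and 3 of them were higher (Pmel, Dct and Tyr) and 3 lower (Tyrp1, Gpr143 and Sox10) by the same test. Of 8 markers each, 6 leukocyte and 5 endothelial genes stayed at 3 counts or fewer in all libraries, and Alb, the main product of hepatocytes, was at 0 counts in all libraries but a single one of WT31_P5IV, which had 9. Summed levels in WT31 and WT31_P5IV were 1.67 to 4.50 and 6.28 to 9.86 TPM for the leukocyte list, 0.138 to 0.486 and 0.288 to 0.723 TPM for the endothelial list and 0.863 to 1.24 and 1.29 to 1.69 TPM for 8 stellate cell and fibroblast markers. The hepatocyte list came to 283 to 320 and 419 to 445 TPM, with 3 of 8 genes at 0 in all libraries and Trf alone, which other cells also make, at 294 and 429.9 TPM on average. Cd68 (1.37 and 3.73 CPM in WT31 and WT31_P5IV), Acta2 (0.275 and 0.758 CPM) and Col1a1 (0.868 and 1.73 CPM) were low and higher in WT31_P5IV, while Pdgfrb (log2 fold change -0.19, adjusted p = 0.618 by edgeR) did not pass and the other 5 stellate cell and fibroblast markers were too low to test, and the part of other cells in the results was not tested. Cdkn2a, which holds INK4a, averaged 2.94 CPM in WT31 and 3.13 CPM in WT31_P5IV, and gene totals do not show which of its exons were read. The WT31 libraries lay along a gradient, with replicates 2 and 3 at one end and replicates 4 and 5 at the other. The deviations of replicates 2 and 5 from the WT31 mean correlated at -0.848. Member results are also given without replicates 2 and 3 where this changed them, a choice made after seeing the data. No fit left out replicates 4 and 5 together, so these values move the WT31 mean towards them and are no correction.

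Of the 9 tested members, 5 differed between the groups, against 68.5% of all tested genes. Bcl2, Mcl1 and Bak1 were lower in WT31_P5IV (3 of 9, against 33.9% of all genes), and Bax and Bid were higher (2 of 9, against 34.6%) on the CPM scale. On log2(TPM + 0.1), by limma, no member was higher and 4 of 9 were lower (Bcl2, Mcl1, Bak1 and Bcl2l1), beside 21.4% of all genes higher and 43.7% lower. On that scale the log2 differences of all tested genes lay at a median of -0.17 from those in CPM. Differences in TPM given below are to be read against this shift. No member passed a 2-fold filter (an adjusted p under 0.05 and an absolute log2 fold change of at least 1), which 9.19% of all genes passed. The groups did not overlap in CPM for 4 of the 9 members, against 54.1% of all genes. The median log2 fold change of the tested members was 0.07, beside 0.01 for all genes, and the median absolute log2 fold change was 0.17, beside 0.30 for all genes. In bulk RNA, fewer cells with a transcript and less of it per cell cannot be told apart.

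**Figure D1:**
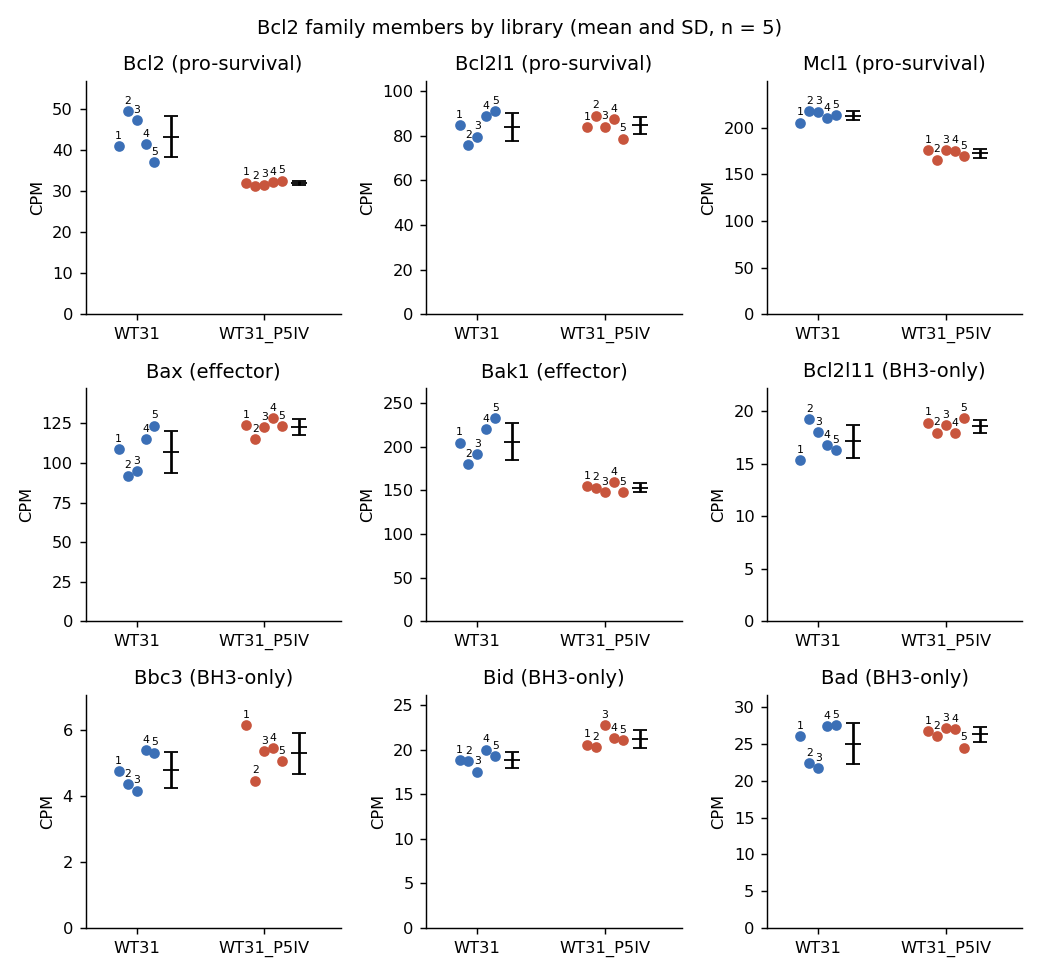
CPM (linear axes from 0) of the 9 tested members in each library, with the replicate number above each point and the mean and SD (n = 5) to its right. Bcl2, Mcl1 and Bak1 lay lower in all 5 WT31_P5IV libraries than in any WT31 library, and WT31 replicates 2 and 3 lay beside each other for most members.

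Bcl2 (chr1:106538178-106714274, minus strand, GRCm38), the founding pro-survival member, gave 40.9, 49.4, 47.3, 41.5 and 37.1 CPM in WT31 replicates 1 to 5. It gave 32.1, 31.2, 31.6, 32.3 and 32.5 CPM in the WT31_P5IV replicates. All WT31_P5IV libraries were below the lowest WT31 library, and they were closer to each other, with a coefficient of variation of 1.72% against 11.6% in WT31. This was not particular to Bcl2, since of the tested members only Mcl1 and Bbc3 did not spread less in WT31_P5IV. The group means of Bcl2 were 43.2 ± 5.02 and 31.9 ± 0.549 CPM (SD over 5 libraries each), and the log2 fold change was -0.44 (95% interval -0.58 to -0.30, adjusted p = 3.50e-05 by edgeR's quasi-likelihood test). Without WT31 replicates 2 and 3 it was -0.33 (adjusted p = 5.29e-06 by edgeR). These levels rest on 727 to 1305 estimated counts per library.

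Mcl1 (chr3:95658788-95663176, plus strand), a pro-survival member whose protein is known for its rapid turnover, gave 205, 217, 217, 210 and 214 CPM in WT31. The WT31_P5IV libraries gave 176, 166, 176, 175 and 169 CPM, all below WT31. The spread was small in both groups, with coefficients of variation of 2.36% and 2.70%. The log2 fold change was -0.30 (95% interval -0.37 to -0.23, adjusted p = 1.25e-06 by edgeR), on means of 213 ± 5.02 and 173 ± 4.66 CPM (SD, n = 5). Bcl2l1 (chr2:152780668-152831728, minus strand), which encodes Bcl-xL, gave 84.7, 75.7, 79.5, 88.7 and 90.8 CPM in WT31 and 83.9, 89.0, 84.1, 87.4 and 78.7 CPM in WT31_P5IV. Its groups overlapped, and its log2 fold change was 0.01 with an interval of -0.10 to 0.12 (adjusted p = 0.846 by edgeR), its sign depending on the libraries and the scaling used. On the TPM scale Bcl2l1 was lower as well, at -0.16 (adjusted p = 0.0214 by limma), close to the median shift of all genes on that scale.

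The effectors differed from each other in direction on the CPM scale. Bak1 (chr17:27019810-27029009, minus strand), which resides in the mitochondrial outer membrane, gave 205, 180, 192, 220 and 233 CPM in WT31. WT31_P5IV gave 155, 153, 148, 160 and 148 CPM, below every WT31 library. The means of 206 ± 21.2 and 153 ± 5.18 CPM (SD, n = 5) gave a log2 fold change of -0.43 (95% interval -0.56 to -0.30, adjusted p = 1.49e-05 by edgeR), and without WT31 replicates 2 and 3 it was -0.54 (adjusted p = 1.31e-08). Of the 31-base words in Bak1 transcripts, 20.4% also occur in Ggnbp1, a gene on the opposite strand, whose 2 identifiers had at most 14 and 35 counts.

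Bax (chr7:45461697-45466898, minus strand), which moves from the cytosol to the mitochondrion when active, gave 109, 92.0, 94.99, 115 and 124 CPM in WT31. WT31_P5IV gave 124, 115, 123, 128 and 123 CPM. The groups overlapped, since WT31 replicates 4 and 5 lay within the range of WT31_P5IV, and WT31 replicates 2 and 3 were the lowest libraries. The log2 fold change was 0.20 (95% interval 0.05 to 0.35, adjusted p = 0.0209 by edgeR). It turned to -0.01 on the TPM scale (adjusted p = 0.869 by limma), where all genes shifted by a median of -0.17. Without WT31 replicates 2 and 3 the value from counts was 0.07 (adjusted p = 0.203). Leaving out WT31 replicate 2, WT31 replicate 3 or WT31_P5IV replicate 4 alone left it at 0.14, 0.15 and 0.18 but ended the call (adjusted p = 0.0578, 0.0698 and 0.0569). Leaving out WT31 replicate 4 or WT31 replicate 5 alone raised it to 0.21 and 0.24 (adjusted p = 0.0188 and 0.00279, all by edgeR), and the other single omissions kept the call. Of the 31-base words of Bax, 11.1% are shared, chiefly with Gm45808, which was at 0 counts in all libraries.

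Among the BH3-only members, Bid (chr6:120891930-120916853, minus strand), which caspase-8 cleaves to link death receptors to mitochondria, was the single tested member that passed the threshold. It gave 18.8, 18.7, 17.5, 20.004 and 19.3 CPM in WT31 and 20.6, 20.2, 22.8, 21.3 and 21.1 CPM in WT31_P5IV. All WT31_P5IV libraries lay above WT31, and the nearest were replicate 2 of WT31_P5IV and replicate 4 of WT31. The log2 fold change was 0.17 (95% interval 0.06 to 0.27, adjusted p = 0.00841 by edgeR), and it was 0.11 without WT31 replicates 2 and 3 (adjusted p = 0.0677). On the TPM scale it was 0.01 (adjusted p = 0.848 by limma), beside a median shift of all genes on that scale of -0.17. Bid shares 16.9% of its 31-base words with Bcl2l13, its neighbour on the opposite strand, which had 1976 to 2400 counts beside 447 to 566 for Bid. Bcl2l13 was itself higher in WT31_P5IV (0.23, adjusted p = 7.58e-05 by edgeR), and the part of shared reads in the value of Bid was not tested.

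Bcl2l11 (chr2:128126038-128162547, plus strand), which encodes Bim and is known to be held down by ERK signaling, gave 15.3, 19.3, 18.0, 16.7 and 16.3 CPM in WT31 and 18.9, 18.0, 18.7, 17.9 and 19.3 CPM in WT31_P5IV. Here WT31 replicates 2 and 3 were the highest of their group, the reverse of Bax, and they lay within the range of WT31_P5IV or near it. The log2 fold change was 0.12 (95% interval -0.01 to 0.25, adjusted p = 0.103 by edgeR). Without WT31 replicates 2 and 3 it was 0.19 and passed the threshold (adjusted p = 0.00671), as it did without WT31 replicate 2 alone (0.15, adjusted p = 0.0285). It was 0.07 without WT31 replicate 1 (adjusted p = 0.351) and 0.06 with a filter of at least 1 count in all libraries together (adjusted p = 0.478, all by edgeR).

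Bad (chr19:6941861-6951899, plus strand), a BH3-only member controlled by phosphorylation downstream of survival kinases, averaged 25.1 ± 2.79 CPM in the parental line and 26.3 ± 1.08 CPM in the subline (SD, n = 5). Its WT31 libraries ran from 21.7 to 27.6 CPM and spanned all of WT31_P5IV. The log2 fold change of 0.07 had an interval of -0.07 to 0.22 (adjusted p = 0.363 by edgeR), and it was -0.05 without WT31 replicates 2 and 3 and -0.18 on the TPM scale, passing the threshold in neither (adjusted p = 0.336 and 0.0738). Bad shares 18.4% of its 31-base words with Gpr137 on the opposite strand, which had 859 to 1062 counts. Bbc3 (chr7:16308393-16318205, plus strand), which encodes Puma, a target of p53, averaged 4.79 ± 0.551 and 5.28 ± 0.612 CPM (SD, n = 5), on 104 to 146 counts. Its log2 fold change was 0.14 with an interval of -0.08 to 0.36 (adjusted p = 0.228 by edgeR), and its coefficients of variation, 11.5% and 11.6%, included the highest of any member in WT31_P5IV. It was 0.08 without WT31_P5IV replicate 1 (adjusted p = 0.526) or WT31 replicate 3 (0.494), 0.02 without WT31 replicates 2 and 3 (0.853, all by edgeR) and 0.03 on the TPM scale (adjusted p = 0.899 by limma).

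Pmaip1, which encodes Noxa, another BH3-only target of p53 that binds Mcl1, was at 0 estimated counts in 7 of 10 libraries and reached at most 2.47 counts, in WT31 replicate 2. This is under the limit of 3 counts in every library, so no fold is given. With 7 values at 0, a two-sided exact permutation test could not go below p = 0.167 (it gave 0.722, n = 5 per group), so it says nothing of a difference. Pmaip1 was thus not detectable at this depth in either line, while its fellow p53 target Bbc3 was.

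**Figure D2:**
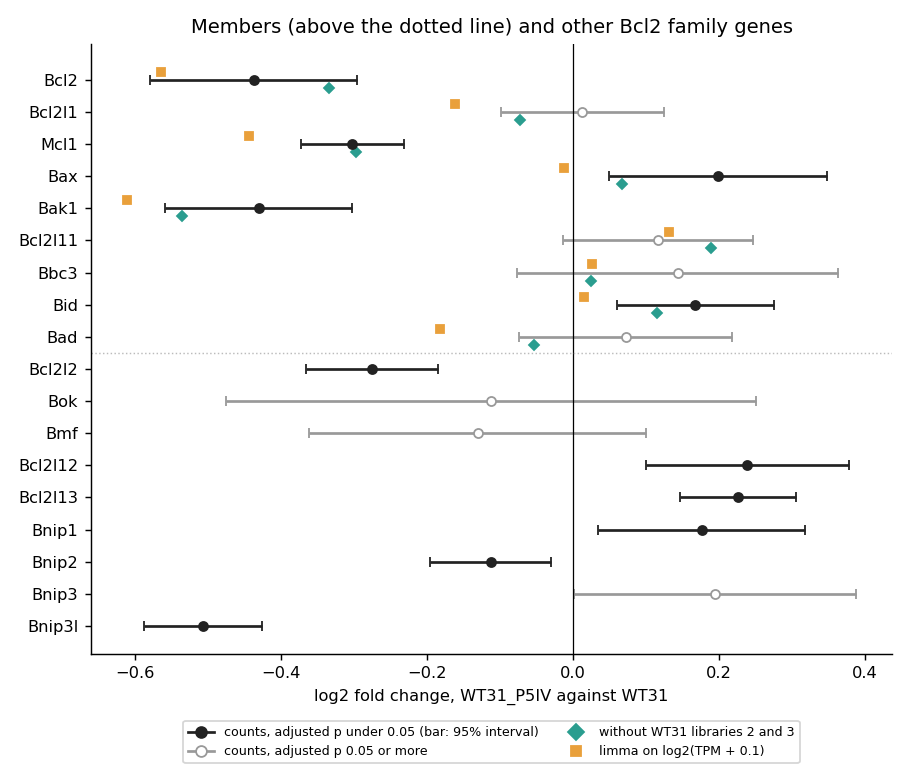
Log2 fold changes (WT31_P5IV against WT31) of the 9 tested members and, under the dotted line, 9 other Bcl2 family genes, as circles with 95% intervals (filled where the adjusted p was under 0.05). Diamonds leave out WT31 replicates 2 and 3 and squares use log2(TPM + 0.1), and only Bcl2, Mcl1 and Bak1 among the members had all 3 symbols below -0.25, while the Bax symbols lay from -0.01 to 0.20.

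Bcl2, Mcl1 and Bak1 stayed below 0 with an adjusted p under 0.05 in 20 of 20 alternative fits, at log2 fold changes of -0.56 to -0.33 for Bcl2, -0.44 to -0.27 for Mcl1 and -0.61 to -0.40 for Bak1. The fits draw on the same 10 libraries and are not independent. The lowest value of each of these members is on log2(TPM + 0.1), where all genes shifted by a median of -0.17. Since these members were lower in WT31_P5IV together, the bases around their RefSeq start sites (GRCm38.p6, 250 bases before to 50 after, 5′ to 3′ on the gene's strand) are printed to show what their promoters share, with matches to the motifs below in capitals. The windows were chr1:106714241-106714540 on the minus strand for Bcl2, chr3:95658471-95658770 on the plus strand for Mcl1 and chr17:27028578-27028877 on the minus strand for Bak1.
Bcl2: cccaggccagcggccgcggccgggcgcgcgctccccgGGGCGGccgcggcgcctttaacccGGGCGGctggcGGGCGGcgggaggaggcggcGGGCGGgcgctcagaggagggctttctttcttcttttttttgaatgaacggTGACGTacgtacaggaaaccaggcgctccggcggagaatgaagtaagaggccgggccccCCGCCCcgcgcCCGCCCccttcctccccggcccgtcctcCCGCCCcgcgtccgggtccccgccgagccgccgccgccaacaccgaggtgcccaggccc
Mcl1: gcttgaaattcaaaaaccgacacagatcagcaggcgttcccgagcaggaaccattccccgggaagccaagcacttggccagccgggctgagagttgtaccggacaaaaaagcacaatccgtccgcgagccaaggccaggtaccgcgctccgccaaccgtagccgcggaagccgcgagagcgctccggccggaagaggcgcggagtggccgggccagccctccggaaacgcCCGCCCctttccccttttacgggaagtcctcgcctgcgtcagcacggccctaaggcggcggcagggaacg
Bak1: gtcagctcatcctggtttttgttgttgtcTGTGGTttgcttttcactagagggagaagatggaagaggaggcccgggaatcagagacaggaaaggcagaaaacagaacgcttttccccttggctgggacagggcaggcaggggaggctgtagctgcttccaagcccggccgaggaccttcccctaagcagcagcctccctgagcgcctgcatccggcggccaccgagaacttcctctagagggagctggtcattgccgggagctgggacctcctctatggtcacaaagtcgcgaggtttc
On both strands, 7 motifs were searched, and of the members 9 of 10 had 15 such windows in all. The GC box GGGCGG occurred 7 times in the Bcl2 window, at 4 places on the printed strand and at 3 as its complement CCGCCC, once as CCGCCC in that of Mcl1 and not in that of Bak1, and 35.7% of 32851 promoters of this length hold it. It also occurred in windows of Bax, Bcl2l11, Bbc3, Bid and Bad, 7 times in a window of Bbc3. G and C made up 76.0% of the Bcl2 window, beside a median of 52.7% over these promoters. The window of Bak1 held TGTGGT, the core of the RUNX motif (16.8% of promoters), and that of Bcl2 held TGACGT, part of the cAMP response element (7.5%). None of the 3 windows held CACGTG (the E-box that MITF can bind, 7.2% of promoters), CCAAT (37.4%), TATAAA (13.6%) or the STAT motif TTCNNNGAA (8.3%), so no motif of this search occurred in all 3. Among the members, CACGTG occurred 2 times in the window of Bax and once in a window of Bbc3. A match describes letters in a window and is no site, and its absence says nothing of a factor.

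Among the WT31 libraries, the longest and the shortest members deviated in opposite directions. In WT31 replicate 2, Bcl2, with a mean effective transcript length of 6768 bases, was at 115% of the geometric mean of the 5 WT31 libraries and Bcl2l11, with 3632 bases, at 113%. In the same library Bax, with 723 bases, was at 86.7% and Bad, with 781 bases, at 90.2%. WT31 replicate 5 showed the reverse, with Bcl2 at 86.5%, Bcl2l11 at 95.5%, Bax at 116% and Bad at 111%. The medians of all genes in the outer length classes moved in the same directions, since that of 2492 genes over 4000 bases was 108% in replicate 2 and 93.4% in replicate 5, and the median of 2194 genes under 1000 bases was 93.4% and 107%. Bak1, with 1789 bases, was at 87.7% and 113.5%, as far out as the shortest members, while the medians of its own length class were 96.4% and 103%, so length did not order all members. Mcl1, with 3191 bases and a range of 96.5% to 102%, moved least.

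**Figure D3:**
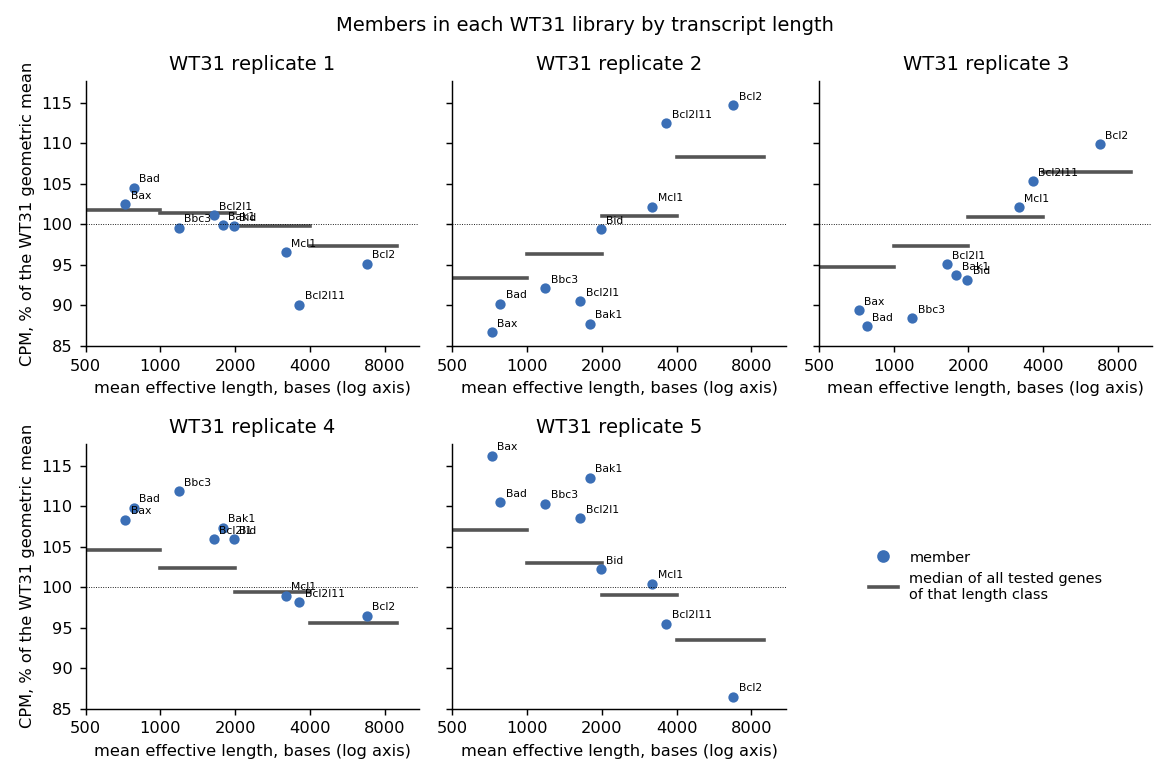
CPM of the 9 tested members in each WT31 library, as a percentage of the geometric mean of the 5 WT31 libraries, against mean effective transcript length in bases (log axis), with bars for the median of all tested genes in 4 length classes. Long transcripts were high and short ones low in replicates 2 and 3, and the order was reversed in replicates 4 and 5, where Bcl2 was at 96.5% and 86.5%.

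Between the lines the median log2 fold change was 0.11 in genes under 1000 bases and -0.05 in genes over 4000 bases. When the length trend of each library entered the fit as an offset, a choice made after seeing the data, Bcl2 was at -0.40 (adjusted p = 6.43e-08), Mcl1 at -0.30 (1.21e-07) and Bak1 at -0.46 (2.46e-07 by edgeR). In that fit Bax was at 0.12 (adjusted p = 0.0199), Bid at 0.14 (0.0122) and Bcl2l11 at 0.14 (0.0264, passing the threshold by edgeR). Bad, at -8e-04, and Bcl2l1, at -0.02, did not pass (adjusted p = 0.989 and 0.683). The offset thus kept the 5 calls and added Bcl2l11, and what set the length trend in the WT31 libraries was not tested.

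Levels can be compared between genes only per length, as TPM. In WT31 the effectors led, with Bax at 224 ± 20.9 and Bak1 at 172 ± 12.4 TPM (SD, n = 5). Mcl1 at 98.6 ± 4.50, Bcl2l1 at 76.5 ± 4.62 and Bad at 49.6 ± 7.06 TPM followed. Bid had 14.1, Bcl2 9.46, Bcl2l11 6.64 and Bbc3 6.02 TPM, and of these neighbours only Bcl2l11 and Bbc3 overlapped in range. In WT31_P5IV the order opened with Bax at 221 and Bak1 at 113 TPM, and then Mcl1 at 72.5 ± 3.54 and Bcl2l1 at 68.4 ± 4.87 TPM overlapped, which they did not in WT31. At the lower end Bcl2l11 at 7.28, Bcl2 at 6.32 and Bbc3 at 6.15 TPM overlapped with their neighbours. Bcl2 was thus the least abundant of the 3 pro-survival members in both lines.

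Within each library the effectors shifted against each other. The ratio of Bax to Bak1 TPM was 1.327, 1.271, 1.252, 1.301 and 1.333 in WT31 and 1.940, 1.838, 2.034, 1.942 and 2.071 in WT31_P5IV. The ranges did not overlap, and WT31 replicates 2 and 3 had the lowest ratios. Mcl1 over Bcl2l1 was 1.30 ± 0.125 in WT31 and 1.06 ± 0.0998 in WT31_P5IV (SD, n = 5), with ranges that overlapped. Summed over Bcl2, Bcl2l1, Mcl1 and Bcl2l2, pro-survival transcripts came to 204 ± 3.3 TPM in WT31 and 163 ± 4.55 TPM in WT31_P5IV. Bcl2l1 made up 37.5% of that sum in WT31 and 42.0% in WT31_P5IV, and Mcl1 48.3% and 44.5%. Effector transcripts (Bax, Bak1 and Bok) came to 398 ± 32.9 and 336 ± 15.2 TPM, and BH3-only transcripts to 78.1 ± 8.21 and 72.7 ± 3.44 TPM (SD, n = 5). TPM differences of all tested genes lay at a median of -0.17 (log2) from the CPM differences, so sums in TPM are to be read relative to that shift, and the -0.16 of Bcl2l1 on the TPM scale lay near it.

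**Figure D4:**
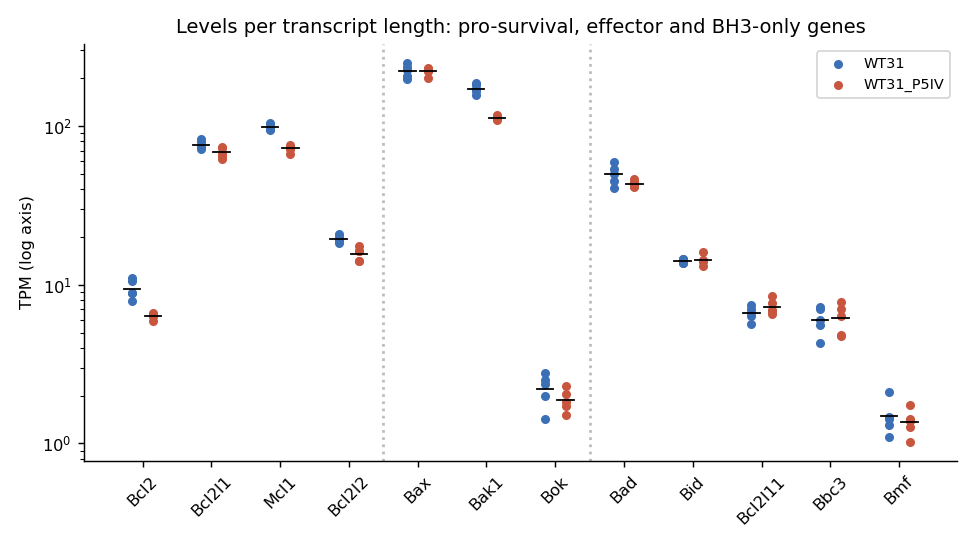
TPM (log axis) of pro-survival, effector and BH3-only genes in the 5 libraries of each line, with a bar for the mean. Bax was the most abundant in both lines, and Bak1, Mcl1 and Bcl2 were lower in WT31_P5IV.

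The mean effective length of a gene's transcripts, taken from its estimated counts over its TPM, moves with the isoforms used and with the fragment length of a library. For the test, log2 lengths were centred on the median gene of each library, so the ratios below are relative to that gene and not those of the lengths in bases. Length differed between the lines for 2 of 9 members by limma, against 35.6% of 13484 genes. Bax had 717, 715, 700, 713 and 713 bases in WT31 and 744, 739, 732, 734 and 725 bases in WT31_P5IV. The groups did not overlap, and the centred log2 length ratio was 0.06 (SE 0.00809, adjusted p = 0.0011 by limma), and 0.05 without centring (adjusted p = 0.019). Bak1 had 1780 ± 8.7 and 1798 ± 13.3 bases (SD, n = 5), with groups that overlapped. Its centred log2 length ratio of 0.03 passed the test (adjusted p = 0.00885 by limma), and without centring, an alternative chosen after seeing the data, the ratio was 0.015 and did not (adjusted p = 0.239). Bcl2l11, whose known isoforms differ in potency, had 3857 ± 168 and 3406 ± 334 bases, a log2 length ratio of -0.17 that missed the threshold (adjusted p = 0.0786 by limma) with overlapping groups. It passed with the replicate block (-0.17, adjusted p = 0.0345) and without WT31_P5IV replicate 3 (-0.21, adjusted p = 0.0247 by limma). Bcl2 and Mcl1 each have 2 annotated transcripts, so the length gives the share of the longer. For Bcl2 (7191 against 2841 bases) it was 96.4% ± 1.26 in WT31 and 93.0% ± 2.03 in WT31_P5IV. For Mcl1 (3418 against 858 bases) it was between 91.7% and 100% in all libraries, and the length of neither gene passed the test (adjusted p = 0.339 and 0.605 by limma).

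**Figure D5:**
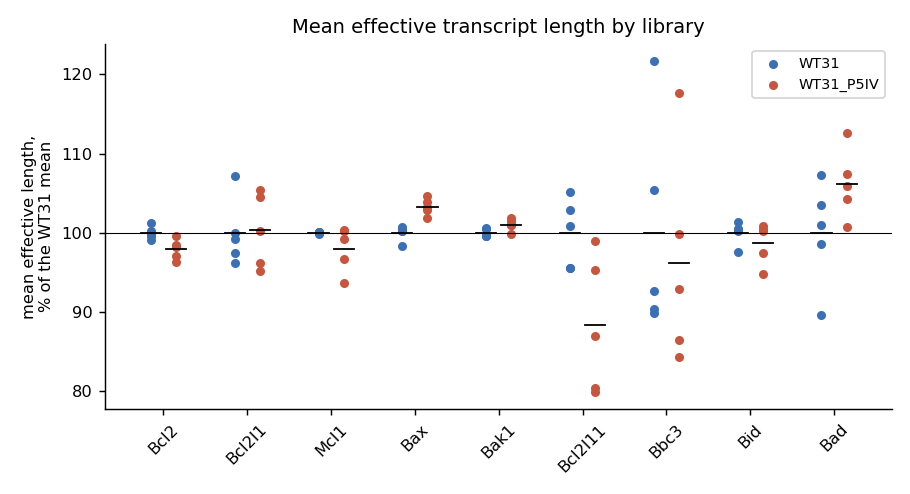
Mean effective transcript length of the 9 tested members in each library, as a percentage of the WT31 mean (bars mark group means, and the axis does not start at 0). Bax lay above WT31 in all 5 WT31_P5IV libraries, and Bbc3 and Bcl2l11 were the most widely spread.

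Of 18 other Bcl2 family genes, 9 passed the filter, and 3 of these were higher and 3 lower in WT31_P5IV (against 34.6% and 33.9% of all genes), none past the 2-fold filter. Without WT31 replicates 2 and 3 the count was 2 higher and 2 lower. Bnip3l, a mitophagy receptor also known as Nix, fell from 107 ± 1.99 to 75.2 ± 3.47 CPM (SD, n = 5), a log2 fold change of -0.51 (adjusted p = 2.29e-08 by edgeR). It shares 23.7% of its 31-base words with a pseudogene that was at 0 counts in all libraries. Bcl2l2, the pro-survival gene of Bcl-w, fell by 0.28 on the log2 scale (adjusted p = 3.97e-05 by edgeR), from 38.1 to 31.5 CPM, and its groups did not overlap. Bnip2 fell by 0.11 on the log2 scale (adjusted p = 0.0185 by edgeR). Bcl2l13, another mitophagy receptor, was at 83.7 and 97.9 CPM (log2 fold change 0.23, adjusted p = 7.58e-05), Bcl2l12 at 17.5 and 20.7 CPM (0.24, adjusted p = 0.00459) and Bnip1 at 13.8 and 15.6 CPM (0.18, adjusted p = 0.0289 by edgeR). These 3 increases were not called on the TPM scale, where all genes shifted by a median of -0.17. On that scale 3 of the 9 genes passed and all were lower, beside 43.7% of all genes. Bcl2l2 shares 12.8% of its 31-base words with other genes, and Bcl2l12 shares 28.1% of its words with Irf3 and Gm15545 on the opposite strand, and Irf3 had 889 to 1336 counts beside 404 to 516 for Bcl2l12. Bnip3 (log2 fold change 0.19, adjusted p = 0.0691), the effector Bok (-0.11, adjusted p = 0.570) and the BH3-only gene Bmf (-0.13, adjusted p = 0.296) did not pass by edgeR, and Bnip3 shares 57.0% of its 31-base words with other genes, chiefly AC160336.1, which had 3555 to 7188 counts. The pro-survival genes Bcl2a1a, Bcl2a1b, Bcl2a1c and Bcl2a1d were at 0 counts in all libraries, which allows up to 3 counts each.

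Downstream of the mitochondrion, 12 of 12 genes of the apoptosome and caspase list were tested, and 3 were higher and 5 lower, where all genes gave 34.6% higher and 33.9% lower, the shares to read the counts of the lists below against. Htra2, a mitochondrial protease that antagonises inhibitor of apoptosis proteins, had the highest log2 fold change (0.91, from 42.9 to 80.5 CPM, adjusted p = 2.61e-09 by edgeR). Of the 6 inhibitors of apoptosis, 2 were higher, Birc5 (0.19, adjusted p = 0.000675) and Birc2 (0.17, adjusted p = 0.0228 by edgeR). Xiap, which blocks caspases directly, was lower at -0.51 (adjusted p = 7.14e-06), and Birc3 had the highest value, 0.33, without passing (adjusted p = 0.085 by edgeR). In the death receptor pathway 7 of 10 genes were tested, with 2 higher and 3 lower. Tnfrsf10b, the mouse TRAIL receptor, was at the top with 0.57 (adjusted p = 8.93e-08), and Cflar, the inhibitor of caspase-8 at the receptor, at the bottom with -0.61 (adjusted p = 2.99e-08 by edgeR).

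Of 10 mitochondrial partners of the family, 2 were higher and 7 lower, with a median log2 fold change of -0.22 beside 0.01 for all genes. Dnm1l, the fission enzyme Drp1, was the lowest (-0.71, from 155 to 94.3 CPM, adjusted p = 8.34e-09), and Spns1, a lysosomal transporter reported to bind Bcl2 proteins, the highest (0.81, from 39.6 to 69.5 CPM, adjusted p = 1.03e-08 by edgeR). Of 10 genes that control the turnover of Mcl1 and BH3-only proteins, 3 were higher and 6 lower (median -0.22), from Ube2k, a ubiquitin-conjugating enzyme, at -0.47 (adjusted p = 9.07e-08) to Fbxo10, a ubiquitin ligase subunit for Bcl2, at 0.32 (adjusted p = 5.62e-05 by edgeR). Of 13 tested genes of p53 and its targets, 1 was higher (Tnfrsf10b) and 6 lower (median -0.15), with Ccng1, a cyclin that p53 induces, the lowest at -0.65 (adjusted p = 1.44e-09 by edgeR). Trp53 itself was at 216 ± 16.6 and 205 ± 8.81 CPM (SD, n = 5, log2 fold change -0.08, adjusted p = 0.197 by edgeR). Of 12 tested transcription regulators of family genes, 2 were higher and 6 lower (median -0.10). Egr1, an immediate early factor, fell from 7.48 to 3.44 CPM (-1.12, adjusted p = 1.07e-07) and Runx3 from 66.5 to 31.3 CPM (-1.09, adjusted p = 4.37e-10), both past the 2-fold filter, and no other gene of these lists passed it. Trib3, a stress-induced pseudokinase, was the highest of that list (0.99, from 0.617 to 1.23 CPM, adjusted p = 0.0014 by edgeR), and Mitf was at 346 and 342 CPM (adjusted p = 0.840).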

How the data were processed

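RNA of 10 cultures was sequenced, 5 of each line. The authors trimmed reads with trim_galore (Trim Galore 0.6.4 in the submitters' processing notes), assigned them to transcripts of GRCm38.p6 with kallisto and deposited estimated counts and TPM summed per gene. The strand setting is not given in the sources used here, so reads of overlapping genes on opposite strands may not be told apart. The file labels number the WT31 libraries otherwise than the sample titles, which were used. Estimated counts were rounded, filtered by filterByExpr, scaled by TMM and compared with edgeR 4.0.16 (glmQLFit and glmQLFTest, R 4.3.3), with adjustment over all 13620 tested genes. CPM are per TMM-scaled library size. Intervals are 95% intervals of the fit. The limit of detection of 3 counts covers counting error only. Mean effective length was the estimated count over TPM, scaled to bases on genes with a single transcript for display and centred on the median gene of each library for the test with limma 3.58.1. Libraries within a group differed by more than counting noise (mean chi-square per gene 2.45 to 25.0, with 1 expected), so none was counted as a copy of another. This comparison cannot tell separate cultures from repeat libraries of a single culture, and the sample titles were relied on for that.

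Alternatives were DESeq2 1.42.0, limma voom, upper-quartile scaling, count filters of 1 in all and 10 per library, log2(TPM + 0.1) and log2(TPM + 1) in limma, the replicate number as a block, each library left out and, added after seeing the data, WT31 replicates 2 and 3 left out, an offset for transcript length and lengths without centring. Birc5 and Birc2 are named besides the rule below, after their values were seen. On simulated counts for 13620 genes the edgeR test found 58.3% of 1.25-fold, 88.0% of 1.5-fold and 93.8% of 2-fold changes, with 7 false calls. The members and gene lists were chosen with earlier results of these data known. Named were all members, the tested family genes, and of each pathway list the genes of largest and smallest log2 fold change, those past the 2-fold filter and Trp53, except for 1 gene that is not reported here. Mitf is named besides, for its known role with Bcl2. Words of 31 bases, the default of kallisto, were counted in GENCODE M21 transcripts. Gene positions are from GENCODE M21 and promoters from RefSeq.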

Additional observations from a re-analysis of the deposited data

Results flagged for a closer look

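In groups of 5 libraries, 3 values lay far from the other 4 by Dixon's test, of 54 groups examined over CPM and transcript length, and chance gives about 1 in 20. Bnip3, which shares most of its sequence words with other genes, was at 14.9 CPM in WT31_P5IV replicate 5, above the other WT31_P5IV libraries. The mean effective transcript length of Bax was 699.5 bases in WT31 replicate 3, below the other WT31 libraries. That of Mcl1 was 3216 bases in the same library, beside 3223 to 3225 bases in the others, a gap of under a percent of its length. This library also had the longest fragments by the length calibration, 201.6 bases beside 192.9 to 195 in the other WT31 libraries, and the part of this in both values was not tested.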

How the results depend on the processing

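Over 114 recalculations of 6 counts, 108 stayed within 1.5 times the reported count. The number of genes past the 2-fold filter was 2332 with at least 1 count in all libraries together, 701 with at least 10 counts in every library and 465 on log2(TPM + 1), against 1251, where more or fewer genes were tested or low genes were damped by the pseudocount. Other Bcl2 family genes past the threshold fell to 3 on log2(TPM + 0.1) and on log2(TPM + 1), and members with a changed length from 2 to 1 without centring on the median gene, and the cause was not tested. The log2 fold change of Bcl2l1 turned to -0.043 with at least 1 count, -0.16 on both TPM scales (-0.1616 and -0.1596), -0.073 without WT31 replicates 2 and 3 and -0.0203 with the length offset, and ran from -0.034 to 0.033 with each library left out. Bax turned to -0.013 on both TPM scales. Bad turned to -0.18 on both (-0.1817 and -0.1784), -0.053 without WT31 replicates 2 and 3 and -8e-04 with the length offset. The log2 length ratio ran from -0.023 to 0.0022 for Mcl1, from -0.12 to 0.034 for Bbc3 and from -0.012 to 0.011 for Bid with each library left out, and that of Bid was 0.0035 in genes of at least 100 counts. Bid lost its call with at least 1 count (0.11, adjusted p = 0.168), and Bcl2l11, at 0.06 there (adjusted p = 0.478), gained it under upper-quartile scaling (0.15, adjusted p = 0.0402, all edgeR) and ran from 0.07 to 0.15 with each library left out. With each library left out, 4 to 5 members, 5 to 6 other family genes and 8965 to 9444 genes passed. Replicate numbers did not pair the libraries: the deviations of same-numbered libraries correlated at -0.153 to 0.417, over 0.1 in 2 of 5 pairs, and 2 WT31 libraries correlated best with their own number. The replicate block gave 9380 genes, 1261 past the 2-fold filter, the 5 members and 7 other family genes. Depth limits Pmaip1, under 3 counts in every library, and Bbc3, with 104 to 146.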
